A study of Rattus norvegicus with 15 samples.

Results

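The genes described here lie on a stretch of rat chromosome 17 taken to be the locus of the rodent placental cathepsins and their relatives. That identity was checked only by gene length, as given below. All 15 annotated genes of the stretch were taken, the first of which begins at position 3210130 and the last of which ends at 4167411 of chromosome 17 in the Rnor6.0 build. A gene counted as a member when it had 0 counts in all 3 control and all 3 H2O2 libraries and at least 1 count in all 3 mitochondria libraries or in all 3 MitoCoat libraries. This left 8 of the 15 genes, out of 32552 genes in the files. Of the 8 members, 5 met the rule in both groups, 3 met it only through MitoCoat and 0 only through mitochondria. The same count rule was met by 55 genes, or 0.169% of the whole table. The members were thus chosen on their counts, so that their 0 counts in control and H2O2 and their presence after mitochondria or MitoCoat are the choice itself and are given as a description.

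RNA from cultured primary rat cortical astrocytes, the star-shaped glia of the brain, was sequenced in 5 groups of 3 samples each. The study's methods describe the cells as taken from Sprague Dawley rats aged 1 to 2 days. Control cells received water as vehicle, and the other 4 groups received 100 µM H2O2 for 30 min. At 24 h after that exposure, cells were left without further addition (H2O2) or were given mitochondria, MitoCoat or MitoCoat-mRNA, and RNA was collected 6 h after the addition. By the study's methods, the added mitochondria were a centrifugation fraction of cryopreserved Sprague Dawley rat placenta. MitoCoat was that fraction enclosed in the lipids DOTAP and DOPE, and MitoCoat-mRNA was RNA extracted from the fraction and enclosed in the same lipids. The methods give 5 or 10 µg of mitochondria or MitoCoat, and 100 ng of RNA for MitoCoat-mRNA, per 100 µL of medium. Which amount of mitochondria or MitoCoat was used for sequencing is not stated. Folds between the groups were not scaled to the amount added. The labels do not state whether samples of a group came from separate cultures or animals, and p-values then measure only the spread between these samples. RNA made by the astrocytes and RNA brought in with a placental preparation cannot be told apart in these bulk libraries, nor can fewer cells of a type and less RNA per cell. The astrocyte label was not checked against marker genes, since the files give identifiers without symbols. Libraries held between 35315654 and 46778663 counts, and mitochondrially encoded genes took 2.81% to 4.61% of them. Among all counts from 1 to 10, 97.4% were even numbers, so that mates of a read pair appear to have been counted separately and a value of 2 may stand for 1 fragment.

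Cathepsin L and its relatives are papain-like cysteine proteases that are made with an N-terminal propeptide, which folds over the active site and is removed when the enzyme matures in the lysosome. Cathepsin L is found in most tissues. In rodents, its gene has been duplicated many times in 1 neighbourhood, and the copies, among them Ctsj, Ctsm, Ctsq, Ctsr, Cts7 and Cts8, are known for expression in the trophoblast of the placenta. Tpbpa lies in the same neighbourhood, encodes a secreted protein related to the cathepsin propeptide without the protease domain, and is a standard marker of the spongiotrophoblast, the middle layer of the rodent placenta. Ctsq marks trophoblast giant cells of the labyrinth.

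None of the 32552 identifiers could be looked up in the RefSeq gene table, so the name of the locus was checked by gene length. The table describes the newer GRCr8 build and lists 17 genes named as cathepsins, Tpbpa, Ctla2a or Testin in the block from Ctsm to Cts7l2. The span of 3 members equalled that of 1 gene of that block each. ENSRNOG00000017946 spans 5560 bases, as does Ctsq, ENSRNOG00000046476 spans 4649 bases, as does Ctsj, and ENSRNOG00000039975 spans 2371 bases, as does Tpbpa. The 3 lie in the same order in both builds. Equal length alone is weak, since 247 of the 1018 genes of chromosome 17 in the files have the span of some RefSeq gene of that chromosome, and member ENSRNOG00000056519 equalled Spata31c2, a gene outside the block. The members are therefore called by identifier.

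Exon structure, which the choice did not use, was compared among the genes, without the exon lengths of any named cathepsin at hand. The pair of exon lengths was taken from the members themselves. Consecutive exons of 225 and 163 bases were found in 6 of the 8 members, in both non-member genes that were also at 0 in control and H2O2, and in 2 of the 3 genes at 0 in all libraries. Over the whole table, 16 genes held this pair of exon lengths, of which 10 lay on the stretch, 3 elsewhere on chromosome 17 and 3 on other chromosomes. The pair was absent from ENSRNOG00000030276, where exons of 117 and 108 bases, which sum to the missing length of 225, precede the exon of 163. It was also absent from ENSRNOG00000039975, the shortest member with 5 exons and 703 bases of counted exon. An exon of 123 bases was present in all 8 members. Outside the stretch, ENSRNOG00000018566 (chr17:1872848-1879279, minus strand) carried the same exon lengths from 137 to 118 as ENSRNOG00000046476, and unlike the members it was read in every library. Its level was 518 ± 48.0 CPM in control, 400 ± 41.4 in H2O2, 395 ± 30.3 in mitochondria, 419 ± 45.3 in MitoCoat and 384 ± 12.4 in MitoCoat-mRNA (mean ± SD, n = 3 each). CPM denotes counts per 1000000 of the library size after TMM scaling.

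The regions just before genes of the RefSeq block are shown as a description, and whether they bear on the members' reads was not tested. RefSeq (GRCr8) holds promoter windows, from 250 bases before to 50 bases after the gene start, for 14 genes of the block. The letters CCAATCA, which include the CCAAT pentamer, were found on 1 of the strands in 6 of these 14 windows (Ctsm, Cts7, Ctsr, Ctsj, Ctsml1 and Tpbpa), or 42.9%. Over all 33469 windows of the same length, 2364 held them, or 7.06%. The letters were picked after the windows had been read, which favoured a higher share in them than over all windows. Both strands were searched, and a match is a description of the sequence only. Of the genes whose spans equalled members, Ctsj and Tpbpa are among the 14 with a window and Ctsq is not. The 2 windows follow 5′ to 3′ in lower case, with CCAATCA in capitals. Ctsj is the window chr17:3744090-3744389 and Tpbpa is chr17:3804409-3804708, both on the plus strand of GRCr8.
Ctsj: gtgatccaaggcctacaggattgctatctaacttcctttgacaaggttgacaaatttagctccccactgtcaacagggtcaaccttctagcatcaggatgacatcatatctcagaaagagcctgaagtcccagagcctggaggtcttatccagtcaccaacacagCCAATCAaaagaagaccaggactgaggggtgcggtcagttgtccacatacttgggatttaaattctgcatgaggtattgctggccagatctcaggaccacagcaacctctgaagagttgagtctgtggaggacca
Tpbpa: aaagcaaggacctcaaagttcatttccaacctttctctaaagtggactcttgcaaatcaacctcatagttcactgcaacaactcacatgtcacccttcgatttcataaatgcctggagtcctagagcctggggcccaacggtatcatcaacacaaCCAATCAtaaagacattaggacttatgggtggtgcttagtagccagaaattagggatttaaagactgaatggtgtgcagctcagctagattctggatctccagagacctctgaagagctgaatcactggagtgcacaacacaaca
The capitals begin 85 bases before the gene start in Ctsj and 95 bases before it in Tpbpa.

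**Figure D1:**
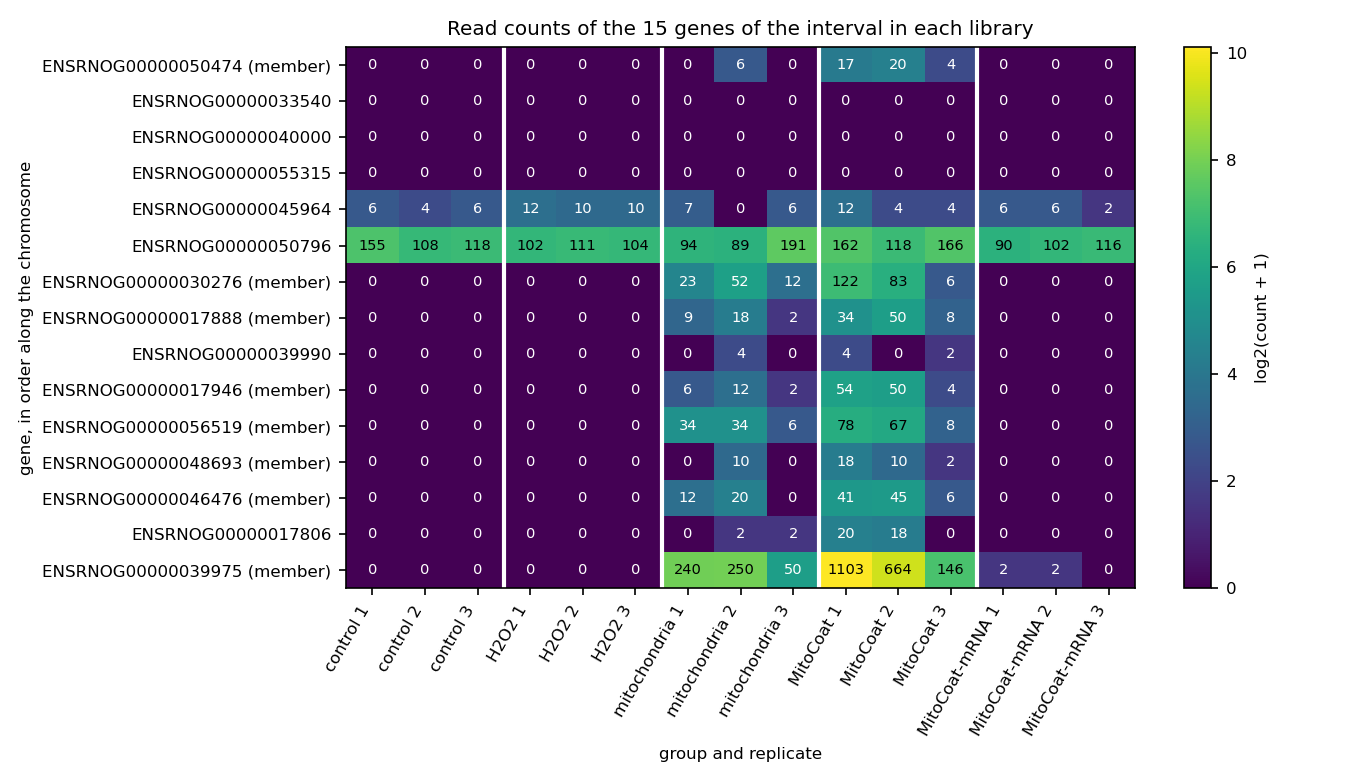
Read counts of the 15 genes of the stretch (rows, in chromosome order) in the 15 libraries (columns, by group and replicate), with colour giving log2(count + 1) and each count written in its cell. The 8 members have counts in the mitochondria and MitoCoat columns, 1 of them has 2 counts in MitoCoat-mRNA replicates 1 and 2, and ENSRNOG00000050796 is read in every column.

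ENSRNOG00000039975 (chr17:4165041-4167411, plus strand), the gene with the span of Tpbpa, was the most abundant member. It had 240, 250 and 50 counts in mitochondria replicates 1, 2 and 3. In MitoCoat it had 1103, 664 and 146 counts. In MitoCoat-mRNA it had 2, 2 and 0. Every mitochondria and MitoCoat library stood above every MitoCoat-mRNA library, whereas control and H2O2 were at 0 by the rule. Replicate 3 was the lowest in mitochondria and in MitoCoat. These 2 groups overlapped because MitoCoat replicate 3 fell below mitochondria replicates 1 and 2. The level was 4.33 ± 2.85 CPM in mitochondria and 15.2 ± 10.97 CPM in MitoCoat (n = 3 each). Since the rule used the H2O2 libraries, the bounds against them here and below are a description. Against the limit of 3 counts over the 3 H2O2 libraries together, used wherever a group was at 0, this was at least 168-fold and at least 588-fold higher. If mates were counted separately, 3 fragments give 6 counts, and these bounds become 83.8 and 294.

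ENSRNOG00000030276 (chr17:3820606-3826015, plus strand), the member with the divided exon, followed it in counts. It had 23, 52 and 12 counts in mitochondria and 122, 83 and 6 in MitoCoat, and 0 in every other library. Its MitoCoat replicate 3 lay below all 3 mitochondria libraries. The level was 0.681 ± 0.482 CPM in mitochondria and 1.67 ± 1.37 CPM in MitoCoat, at least 26.4-fold and at least 64.8-fold above the H2O2 limit of 3 counts, or 13.2 and 32.4 with a limit of 6 counts.

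ENSRNOG00000056519 (chr17:4045041-4050423), the only member on the minus strand, had 34, 34 and 6 counts in mitochondria and 78, 67 and 8 in MitoCoat. Its level was 0.595 ± 0.409 and 1.22 ± 0.886 CPM, respectively. It lies 13008 bases from ENSRNOG00000048693 (chr17:4063432-4068100, plus strand), with which it shares the exon lengths 123, 180, 225, 163 and 115. ENSRNOG00000048693 had 0, 10 and 0 counts in mitochondria. In MitoCoat it had 18, 10 and 2, the fewest of any member in that group. These 2 genes and ENSRNOG00000017946 differ from the other members in the exon of 180 bases. Reads of such similar genes could be lost where they map to more than 1 place, because the study's methods state that only uniquely mapped reads were counted, and the split between them is therefore uncertain.

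ENSRNOG00000017946 (chr17:3991330-3996889, plus strand), with the span of Ctsq, had 6, 12 and 2 counts in mitochondria and 54, 50 and 4 in MitoCoat. Its level was 0.158 ± 0.118 and 0.862 ± 0.659 CPM. ENSRNOG00000046476 (chr17:4105890-4110538, plus strand), with the span of Ctsj, had 12, 20 and 0 counts in mitochondria and 41, 45 and 6 in MitoCoat. Replicate 3 of mitochondria was the only library of its group without a read of this gene, which kept it from meeting the rule in both groups.

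ENSRNOG00000017888 (chr17:3885684-3894440, plus strand) had 9, 18 and 2 counts in mitochondria and 34, 50 and 8 in MitoCoat. ENSRNOG00000050474 (chr17:3210130-3214622, plus strand) had 0, 6 and 0 counts in mitochondria and 17, 20 and 4 in MitoCoat. The latter stands apart on the map, 605983 bases before the next member, with 5 genes in between that are not members. The other 7 members lie within the last 346806 bases of the stretch.

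**Figure D2:**
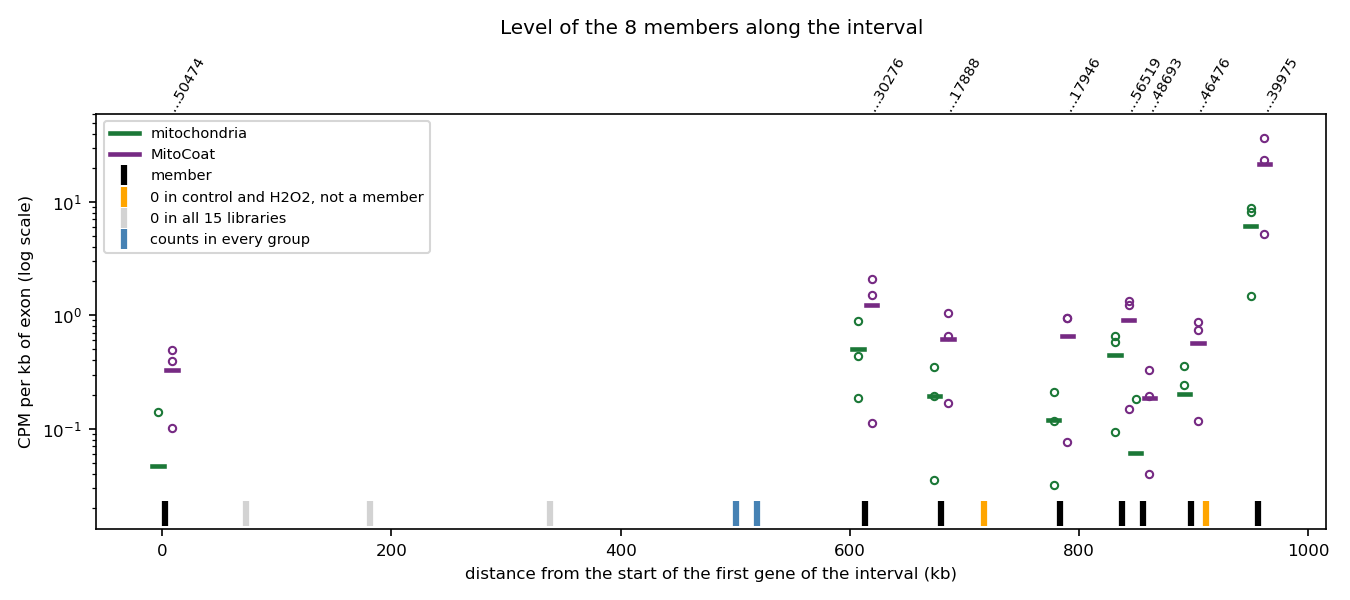
Level of each member in CPM per kb of counted exon (log scale) against distance from the start of the first gene (kb), for mitochondria (green) and MitoCoat (purple), with open circles for libraries above 0, bars for the mean of all 3 libraries and ticks at the foot for all 15 genes by class. Libraries at 0 have no circle, and ENSRNOG00000039975 at the right end has the highest mean in both groups, 6.16 and 21.6 CPM per kb.

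Compared per kb of exon, ENSRNOG00000039975 was the highest member in all 6 libraries, 8.0 to 30.9 times the next one. Its mean was 6.16 ± 4.06 CPM per kb in mitochondria and 21.6 ± 15.6 in MitoCoat. In MitoCoat the other means ran from ENSRNOG00000030276 at 1.24 ± 1.02 through ENSRNOG00000056519 at 0.911 ± 0.662, ENSRNOG00000017946 at 0.653 ± 0.500, ENSRNOG00000017888 at 0.623 ± 0.437, ENSRNOG00000046476 at 0.574 ± 0.401 and ENSRNOG00000050474 at 0.331 ± 0.206 to ENSRNOG00000048693 at 0.187 ± 0.144 CPM per kb. Neighbours in that order after the first differed by less than the larger of their SDs. In mitochondria the order began in the same way, with ENSRNOG00000030276 at 0.505 ± 0.357 and ENSRNOG00000056519 at 0.444 ± 0.306 CPM per kb, and ended with ENSRNOG00000050474 at 0.0464 ± 0.0804.

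**Figure D3:**
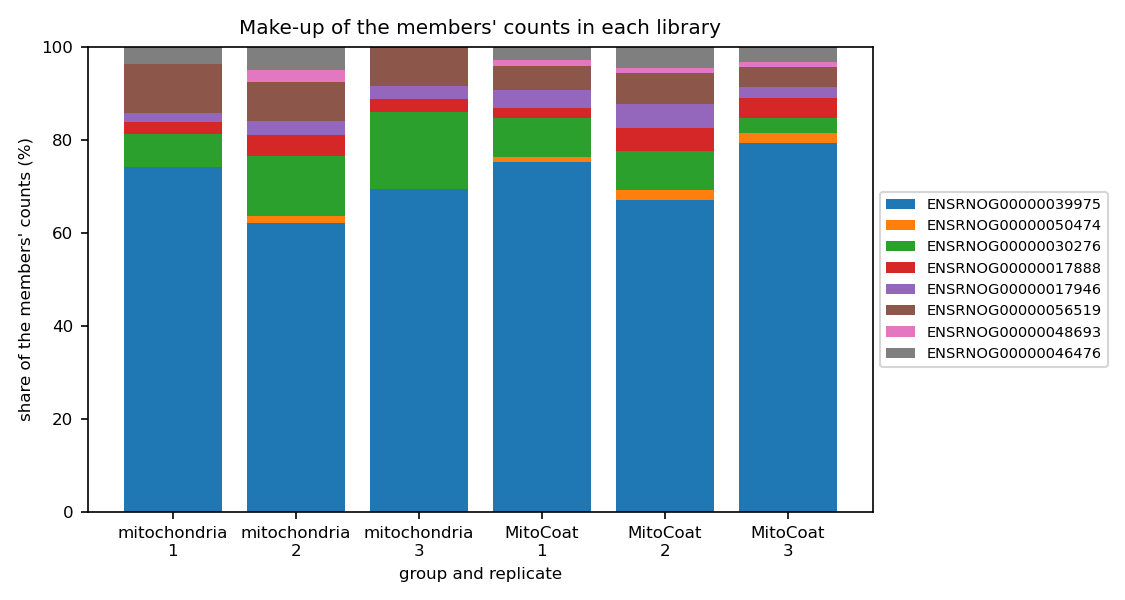
Share of the members' summed counts (percent) taken by each member in the 3 mitochondria and 3 MitoCoat libraries, as stacked bars. ENSRNOG00000039975 takes the largest share in each bar, from 62.2% to 79.3%.

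The members' counts summed to 324, 402 and 72 in mitochondria and to 1467, 989 and 184 in MitoCoat. ENSRNOG00000039975 made up 74.1% of the sum in mitochondria replicate 1 (95% Clopper-Pearson interval 68.9 to 78.8), 62.2% in replicate 2 (57.2 to 66.9) and 69.4% in replicate 3 (57.5 to 79.8). In MitoCoat its share was 75.2% (72.9 to 77.4), 67.1% (64.1 to 70.1) and 79.3% (72.8 to 85.0). The shares of the 2 groups overlapped. Among the rest, ENSRNOG00000030276 had a median share of 8.35%, with a range of 3.26% to 16.7%, and ENSRNOG00000056519 one of 7.55%, with a range of 4.35% to 10.5%. Each of the other 5 stayed at or below 5.06% in all 6 libraries. These intervals cover counting error only and are too narrow where mates were counted separately.

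The comparison of MitoCoat with mitochondria asks whether the lipid coat went with a different amount of these transcripts. The choice treated both groups alike for the 5 members that met the rule in both, but it favoured MitoCoat for ENSRNOG00000050474, ENSRNOG00000048693 and ENSRNOG00000046476, which met it through MitoCoat only and whose values here are a description. The summed level was 20.99 ± 14.9 CPM in MitoCoat and 6.37 ± 4.25 CPM in mitochondria, a ratio of 3.29. Over the 5 members that met the rule in both groups, the sums were 19.7 ± 14.1 and 5.99 ± 3.90 CPM, a ratio of 3.28. By replicate number the ratio over these 5 was 4.01, 2.67 and 2.87. The ratio of group means was above 1 for each of the 5, from 2.05 for ENSRNOG00000056519 to 5.46 for ENSRNOG00000017946, and it was 3.51 for ENSRNOG00000039975. The levels of the 2 groups overlapped for every member, whereas 6.24% of the 15731 genes tested lay wholly higher in MitoCoat. In 4 of these 5 members the MitoCoat library was higher at all 3 replicate numbers, beside 15.7% of the genes tested. The exception was ENSRNOG00000030276, with ratios of 4.77, 1.71 and 0.600. These members rose and fell together across the libraries and are not independent of each other. The share of mitochondrially encoded genes also lay higher in every MitoCoat library (3.60%, 4.48% and 4.17%) than in every mitochondria library (3.18%, 3.47% and 3.35%). Groups given no mitochondria spanned these values, with 4.05%, 3.16% and 2.87% in control and 3.81%, 4.61% and 2.97% in H2O2. In MitoCoat-mRNA the share was 4.20%, 3.27% and 2.81%. The part of this share in the result was not tested.

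**Figure D4:**
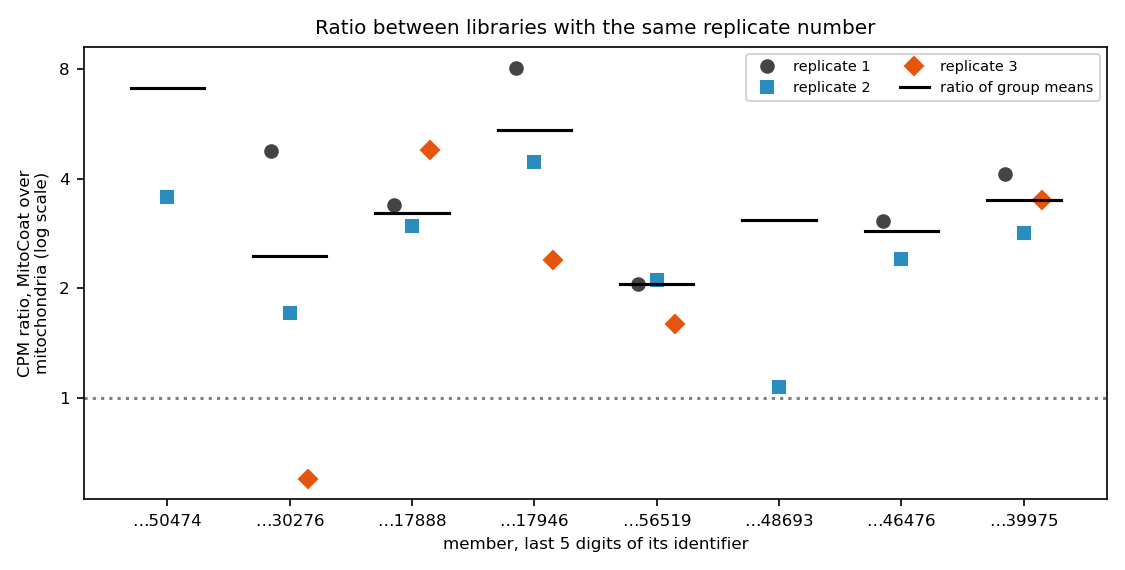
Ratio of CPM in MitoCoat over mitochondria (log scale) for each member, between libraries with the same replicate number (points) and between group means (bars), with a dotted line at 1. Points are missing where the mitochondria library was at 0, which occurs in the 3 members that met the rule through MitoCoat only, and 1 point, replicate 3 of ENSRNOG00000030276 at 0.600, lies below the line.

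With edgeR's quasi-likelihood test, 0 of 15731 genes (0%) were called between MitoCoat and mitochondria at an adjusted p under 0.05. At an unadjusted p under 0.05, 779 genes (4.95%) passed. DESeq2 called 3 genes, none of them on the stretch. Of the members, 6 had enough counts to enter this test, among them ENSRNOG00000046476, which met the rule through MitoCoat only. The log2 fold change was 1.82 ± 0.68 (SE) for ENSRNOG00000039975, 2.44 ± 0.89 for ENSRNOG00000017946, 1.69 ± 0.80 for ENSRNOG00000017888, 1.53 ± 0.97 for ENSRNOG00000046476, 1.30 ± 0.82 for ENSRNOG00000030276 and 1.04 ± 0.79 for ENSRNOG00000056519. Leaving out 1 library turned none of these values, but moved them. They ran from 1.22 to 2.29 for ENSRNOG00000039975 (lowest without MitoCoat replicate 1, highest without MitoCoat replicate 3), from 0.69 to 2.00 for ENSRNOG00000030276 (MitoCoat replicate 1, mitochondria replicate 2) and from 1.11 to 2.45 for ENSRNOG00000017888 (MitoCoat replicate 2, mitochondria replicate 2). Without mitochondria replicate 3 the log2 fold change was lowest for ENSRNOG00000017946 (1.98), ENSRNOG00000046476 (0.93) and ENSRNOG00000056519 (0.56), and their highest values were 3.14 and 2.29 without mitochondria replicate 2 and 1.55 without MitoCoat replicate 3. Their adjusted p-values lay between 0.889 and 0.906, and without any one library that of ENSRNOG00000039975 lay between 0.541 and 0.999. Libraries with the same replicate number deviated together in these groups, and with the replicate number as a block 5 genes (0.0318%) were called higher in MitoCoat. ENSRNOG00000039975 was 1 of them, with a log2 fold change of 1.78 ± 0.16 and an adjusted p of 0.00478 in edgeR, and it was higher in MitoCoat at 3 of 3 numbers. The other 5 members tested were not called with the block, their adjusted p-values lying between 0.347 and 0.592.

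MitoCoat-mRNA was not used to choose the members. Only ENSRNOG00000039975 had counts there, 4 over the 3 libraries, or 0.0319 ± 0.0277 CPM. The other 7 members had 0, which allows up to 0.0235 CPM over the group at 3 counts and 0.0471 CPM at 6 counts. All 8 members met the rule through MitoCoat, so mitochondria against MitoCoat-mRNA compares libraries that the choice did not need. ENSRNOG00000039975 was higher in mitochondria by 136-fold (95% counting interval 51.4 to 487, or 36.3 to 1098 if its 4 MitoCoat-mRNA counts were 2 fragments). All 3 mitochondria libraries stood above all 3 MitoCoat-mRNA libraries, and the share of all genes doing so was not counted. In edgeR its log2 fold change was 6.98 ± 0.89, with an adjusted p of 0.00181. The fold change stayed between 6.41 (without MitoCoat-mRNA replicate 3) and 7.45 (without mitochondria replicate 3) and the adjusted p between 6.65e-05 and 0.0162. ENSRNOG00000030276 was at least 28.9-fold higher, or at least 14.5-fold with the limit of 6 counts, with an adjusted p of 0.0156 in edgeR. This call was lost without mitochondria replicate 1 (adjusted p 0.0535), mitochondria replicate 2 (0.0540) or MitoCoat-mRNA replicate 2 (0.0569). Only these 2 members passed the filter on low counts in this comparison, and they passed through the group in which they were high. Of 15574 genes tested, 334 (2.14%) were called higher in mitochondria, and 652 were with the replicate block, the same 2 members among them. When every gene with at least 1 count was kept, 444 of 22257 genes (1.99%) were called higher, and ENSRNOG00000039975, ENSRNOG00000030276 and ENSRNOG00000056519 were the 3 members called. ENSRNOG00000056519 had 0 counts in MitoCoat-mRNA and entered through mitochondria, where it was high. It also entered the test with the low-count filter when some libraries were left out. It was called without mitochondria replicate 3 (adjusted p 0.00834 in edgeR, beside 372 of 15917 genes called higher). It was not called without MitoCoat-mRNA replicate 1 (0.0757), 2 (0.0958) or 3 (0.0558). ENSRNOG00000046476 entered the same fits and was called in the first (0.0345) but not in the others (0.291, 0.367 and 0.263). DESeq2 (adjusted p 7.93e-05) and 1 edgeR fit of all libraries (0.0422) also called ENSRNOG00000056519, beside 478 of 22257 and 339 of 16631 genes called higher. The bounds for the other 6 members ran from at least 1.96-fold for ENSRNOG00000050474 to at least 25.3-fold for ENSRNOG00000056519. With the limit of 6 counts they ran from 0.982, which is no bound above 1, to 12.6.

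MitoCoat against MitoCoat-mRNA is free of the choice for the 5 members that also met the rule through mitochondria. ENSRNOG00000039975 was 476-fold higher in MitoCoat (95% counting interval 192 to 1812, or 136 to 4076 with 2 fragments in place of 4 counts). Its 3 and 3 libraries did not overlap, and the share of all genes without overlap was not counted. In edgeR its log2 fold change was 8.78 ± 0.95, with an adjusted p of 0.00128. Without any one library the log2 fold change lay between 8.19, without MitoCoat replicate 1, and 9.25, without MitoCoat replicate 3, and the adjusted p between 4.77e-05 and 0.0152. It was the only member that passed the low-count filter, through the group in which it was high, and 245 of 15649 genes (1.57%) were called higher in MitoCoat. For the other 4 of the 5, the level was at least 31.5-fold (ENSRNOG00000017888), 36.6-fold (ENSRNOG00000017946), 51.8-fold (ENSRNOG00000056519) and 71.1-fold (ENSRNOG00000030276) above the MitoCoat-mRNA limit of 3 counts. With the limit of 6 counts these bounds were 15.7, 18.3, 25.9 and 35.6. When every gene with at least 1 count was kept, all 5 were called, with adjusted p-values between 2.97e-07 and 0.00159, beside 324 of 22414 genes (1.45%) called higher. The 4 other than ENSRNOG00000039975 had 0 counts in MitoCoat-mRNA and entered through MitoCoat, where they were high. They also entered the test with the low-count filter when some libraries were left out. Without MitoCoat replicate 3 all 4 were called, with adjusted p-values in edgeR between 0.00166 and 0.0103, beside 245 of 15914 genes called higher. Without MitoCoat-mRNA replicate 1, 2 or 3 none of the 4 was, with adjusted p-values between 0.0549 and 0.144. In those fits 183 of 16039, 108 of 16141 and 151 of 16127 genes were called higher.

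Against H2O2, whose libraries were used in the choice, edgeR called ENSRNOG00000039975 and ENSRNOG00000030276 in mitochondria, where 290 of 15613 genes (1.86%) were called higher (643 with the replicate block), and ENSRNOG00000039975 in MitoCoat, where 231 of 15724 genes (1.47%) were. Nothing is read from these calls, since the rule used the same libraries and fixed their direction. No member entered the test of MitoCoat-mRNA against H2O2 or of H2O2 against control, and the percentages called there in either direction were 0% of 15506 genes (463 at an unadjusted p under 0.05) and 7.19% of 15650 genes.

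The 7 other genes of the stretch fell into 3 classes. ENSRNOG00000039990 and ENSRNOG00000017806 were at 0 in control, H2O2 and MitoCoat-mRNA but missed the rule. ENSRNOG00000017806 (chr17:4118600-4123302, minus strand) had 0, 2 and 2 counts in mitochondria and 20, 18 and 0 in MitoCoat, and so lay just outside the rule, with 38 counts in MitoCoat beside the 30 of ENSRNOG00000048693 just inside it. ENSRNOG00000039990 (chr17:3924473-3929968, plus strand) had 0, 4 and 0 counts in mitochondria and 4, 0 and 2 in MitoCoat. The 3 genes ENSRNOG00000033540, ENSRNOG00000040000 and ENSRNOG00000055315 had 0 counts in all 15 libraries, and the first 2 of them carried the exons of 225 and 163 bases.

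ENSRNOG00000045964 and ENSRNOG00000050796, the remaining 2, are short genes of 2 exons on the minus strand that were read in every group. ENSRNOG00000050796 (chr17:3729421-3729810) had 155, 108 and 118 counts in control, 102, 111 and 104 in H2O2, 94, 89 and 191 in mitochondria, 162, 118 and 166 in MitoCoat and 90, 102 and 116 in MitoCoat-mRNA. MitoCoat lay above H2O2 and MitoCoat-mRNA without overlap, and the other pairs of groups overlapped. The share of all genes without overlap in these comparisons was not counted, so nothing is read from this. It entered all 7 comparisons and was called in none of them, the log2 fold change between MitoCoat and MitoCoat-mRNA being 0.57 ± 0.24 with an adjusted p of 0.295 in edgeR. ENSRNOG00000045964 (chr17:3710572-3710954) had between 0 and 12 counts in every library.

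The members' summed pattern was set beside the 19948 genes outside the stretch with at least 15 counts in total, by Pearson's r of log2(CPM + 0.1) over the 15 libraries, which is given as a description. The 5 highest were ENSRNOG00000038101 on chromosome 1 (r = 0.997), ENSRNOG00000017185 on chromosome 17 (0.996), ENSRNOG00000016871 on chromosome 17 (0.993), ENSRNOG00000017620 on chromosome 1 (0.991) and ENSRNOG00000042158 on chromosome 1 (0.990). ENSRNOG00000038101 (chr1:79680194-79708835) had 220, 195 and 40 counts in mitochondria and 777, 505 and 114 in MitoCoat, 2 counts in 1 control library, 2 in 1 MitoCoat-mRNA library and 0 elsewhere. Replicate 3 was the lowest library in both groups for these 5 genes, which their choice by likeness to the members' pattern favoured. The 3 genes on chromosome 1 share repeated exons of 360 bases, and the nearer of the 2 on chromosome 17 lies 35020899 bases after the stretch.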

How the data were processed

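Poly(A) RNA of 15 astrocyte samples in 5 groups of 3 was analysed. Reads were processed by the authors with Trimmomatic 0.36 and with STAR 2.5.2b on the Rnor6.0 assembly, and the deposited values are raw counts per Ensembl gene from featureCounts (Subread 1.5.2), using uniquely mapped reads over exons. The labels also describe an extraction from mitochondria-enriched fractions. How strand was set for these files is not given in the sources used here.

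The deposited counts were tested with edgeR 4.0.16 (R 4.3.3) by the quasi-likelihood test after filterByExpr and TMM, on the 6 libraries of each of 7 comparisons, with Benjamini-Hochberg adjustment over all genes tested and calls at an adjusted p under 0.05. CPM used TMM sizes over all 15 libraries. DESeq2 1.42.0, the test the authors named, was an alternative, as were RLE factors, a minimum of 1 count, 1 fit of all libraries, the replicate block, leaving out each library, and, chosen after seeing the data, counts divided by 2. The edgeR steps were tested on simulated data. Intervals are 95% Clopper-Pearson, on pooled counts for folds, and the limit for 0 is 3 counts, or 6 if mates were counted separately.

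Same-numbered libraries correlated in their deviations from group means over 16631 genes, with r from 0.173 to 0.219 for MitoCoat and mitochondria, and every pair was above 0.1 also for mitochondria with MitoCoat-mRNA, mitochondria with H2O2 and MitoCoat-mRNA with H2O2. The pairing comes from these data, not from a stated design.

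The members and lists were chosen with earlier results of these data known. All members are named, as are other genes of the stretch with at least 10 counts, the 5 most similar genes outside it, and, beyond that rule and chosen after their values were seen, ENSRNOG00000018566, ENSRNOG00000018028, ENSRNOG00000039954, ENSRNOG00000039971 and the 3 genes at 0. Marker lists were not analysed here because identifiers could not be paired with symbols. A second copy of 1 mitochondria file was not used.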

Additional observations from a re-analysis of the deposited data

How the results depend on the processing

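The number of members was 8, became 5 when at least 5 counts were asked for in all 3 libraries, and was 8 to 9 when any one mitochondria or MitoCoat library was left out of the rule. Without ENSRNOG00000039975, the summed level fell to 2.04 CPM in mitochondria and 5.80 CPM in MitoCoat. Leaving out each library gave 4.92 to 8.81 CPM in mitochondria, 14.5 to 29.2 CPM in MitoCoat and a ratio of 2.28 to 4.58. For genes of the stretch called, DESeq2 gave 6, a minimum of 1 count 7 and 1 fit of all libraries 5, in place of 1. These numbers were alike for MitoCoat against MitoCoat-mRNA and for MitoCoat against H2O2. Over the whole table these settings called higher 398 of 22413, 324 of 22414 and 333 of 16631 genes against MitoCoat-mRNA. Against H2O2 they called higher 408 of 22587, 307 of 22589 and 439 of 16631 genes. Dividing counts by 2 left 1 gene of the stretch called for mitochondria against MitoCoat-mRNA and against H2O2, in place of 2. Beside it, 327 of 14458 and 277 of 14421 genes were called higher. The replicate block called 1 gene of the stretch for MitoCoat against mitochondria, in place of 0, beside 5 of 15731 genes called higher. Without single libraries, 1 to 4 genes of the stretch were called for mitochondria against MitoCoat-mRNA and 1 to 8 for MitoCoat against MitoCoat-mRNA. The range was 1 to 3 for mitochondria against H2O2, 1 to 6 for MitoCoat against H2O2 and 0 to 0 for the other 3 comparisons.

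Over the whole table DESeq2 called 3 genes for MitoCoat against mitochondria, 868 for mitochondria against MitoCoat-mRNA (554 in edgeR), 824 for MitoCoat against MitoCoat-mRNA (467), 885 for mitochondria against H2O2 (560), 900 for MitoCoat against H2O2 (479) and 1776 for H2O2 against control (1125). The replicate block called 5, 1141, 1243 and 924 genes for MitoCoat against mitochondria, mitochondria against MitoCoat-mRNA, mitochondria against H2O2 and MitoCoat against H2O2. It changed no other call among members in the report. One fit of all libraries called 904 for MitoCoat against H2O2 and 1726 for H2O2 against control. Without single libraries the counts ran from 270 to 620 for mitochondria against MitoCoat-mRNA (lowest without MitoCoat-mRNA replicate 2), from 163 to 559 for MitoCoat against MitoCoat-mRNA (lowest without MitoCoat-mRNA replicate 2), from 254 to 444 for mitochondria against H2O2 (lowest without mitochondria replicate 1), from 201 to 430 for MitoCoat against H2O2 (lowest without MitoCoat replicate 2), from 376 to 1166 for H2O2 against control (lowest without control replicate 2) and stayed at 0 for the other 2. The cause was not tested. No fold change of a member reversed. Depth limits the members other than ENSRNOG00000039975, whose replicate 3 libraries held 0 counts of 3 of them in mitochondria and otherwise 2 to 12 counts, which may stand for 1 to 6 fragments.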

Other observations

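The gene that follows the stretch in the files, ENSRNOG00000039971 (chr17:4169838-4171723), begins 2426 bases after the end of ENSRNOG00000039975 and also carries exons of 123 bases. It was chosen after its values were seen. It had 40, 4 and 28 counts in control, 26, 4 and 2 in H2O2, 10, 0 and 0 in mitochondria, 20, 14 and 4 in MitoCoat and 12, 4 and 6 in MitoCoat-mRNA, so that all 5 groups overlapped and control replicate 1 was the highest library. Further on, ENSRNOG00000039954 (chr17:4256299-4273170), which holds the exons of 225 and 163 bases a second time, had 8, 4 and 0 counts in mitochondria, 2, 6 and 0 in MitoCoat, 2 in 1 H2O2 library and 0 in the other libraries. ENSRNOG00000018028 (chr17:4212890-4225376), between these 2 genes, had 0 counts in all 15 libraries.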
